A study of Mus musculus with 18 samples.

Results

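The genes for the costimulatory receptor ICOS, the inhibitory receptor CTLA-4 and 8 further costimulatory or coinhibitory receptors and ligands of the immunoglobulin superfamily were followed in cultured mouse CD4 T cells. The set holds Icos, Cd28, Ctla4, Pdcd1, Btla, Cd200, Lag3, Tigit, Havcr2 and Cd86, chosen by gene symbol, and all 10 were found among the 27179 genes of the count tables. Naive CD4 T cells of mice with a floxed Maf gene were stimulated on plates coated with antibodies to CD3 and CD28, kept in culture for 3.5 days and sorted by flow cytometry. Libraries that read the 3′ end of polyadenylated RNA were then made from 50 ng of RNA. The 6 groups of 3 libraries were labelled CD4Cre+ Maf fl/fl under the treatments Tfh5, Tfh1 and TfhA, and CD4Cre- Maf fl/fl under the same treatments. All groups share the floxed Maf alleles, the antibody stimulation and the culture time, and CD4Cre acts in T cells generally, not in 1 subset. The sources used here do not say what each treatment contained.

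CD28 and ICOS send costimulatory signals through phosphoinositide 3-kinase, and CD28 is the receptor that supports the first activation of naive T cells. CTLA-4 binds the same ligands as CD28, CD80 and CD86, with higher affinity, and so limits CD28 signalling. PD-1, BTLA, LAG-3, TIGIT and TIM-3 (the products of Pdcd1, Btla, Lag3, Tigit and Havcr2) are inhibitory receptors, and CD200 is a surface ligand for an inhibitory receptor on myeloid cells. In T follicular helper (Tfh) cells, which help B cells in germinal centres, ICOS, PD-1, BTLA and CD200 are well-known surface markers. Activated T cells can express CD86 themselves, although it is best known on antigen-presenting cells.

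The libraries totalled between 6424874 and 9236153 counts, with 10242 to 12673 genes detected in each. The 10 CD4 T-cell markers examined, among them Cd3e and Cd4, were above 0 in all 18 libraries, whereas Foxp3, which defines regulatory T cells, had at most 0.778 CPM (counts per 1e6 counts of the scaled library). Other genes used as regulatory T cell markers, Il2ra and Tnfrsf18, were abundant and are described below. The labels were checked on Maf, the floxed gene, and its level ran against them. The 9 libraries labelled CD4Cre+ held 12405 Maf counts and the 9 labelled CD4Cre- held 17, with 7 of the CD4Cre- libraries at 0 after rounding and 6 at 0 in the deposited values. Of the CD4Cre+ counts, 7644 lay in Tfh5, 4514 in Tfh1 and 247 in TfhA, with mean levels of 349, 221 and 11.98 CPM. With CD4Cre- the means were 0, 0.676 and 0.09 CPM in the same order. In CPM, the labels thus differed far less in Maf in TfhA than in Tfh5 or Tfh1. The lowest library labelled CD4Cre+ stood at 5.03 CPM and the highest labelled CD4Cre- at 2.03 CPM. Each direction given between genotypes is therefore a direction between labels, and Maf itself goes against those labels. Nothing in the sources used here says that replicate numbers stand for separate animals, so p-values measure only the spread between these libraries, which may be technical.

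Cd28, Ctla4 and Icos lie next to one another within 253.9 kb of chromosome 1 of the mouse genome (mm10, RefSeq annotation), at 60746388 to 60773359, 60909025 to 60915832 and 60960773 to 61000322. Pdcd1 lies on the same chromosome at 94038305 to 94052553. Btla (45223705 to 45252895), Cd200 (45382111 to 45409060), Tigit (43626137 to 43665125) and Cd86 (36568956 to 36666158) are on chromosome 16, Lag3 is on chromosome 6 (124904359 to 124912434) and Havcr2 on chromosome 11 (46454931 to 46481255). In the GENCODE M21 annotation, Gm37039 overlaps Icos on the same strand, and the processed pseudogene Rpl18-ps1 overlaps the longer Ctla4 gene of that annotation on the same strand. Reads of neither pair can be told apart by strand. Reads were counted in parts in 8 of 18 libraries for Icos, 9 for Ctla4, 8 for Cd28, 5 for Btla and 1 for Cd86, so some of their reads may be shared with other genes.

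RefSeq promoter entries (GRCm38.p6, the full form of mm10) matched 6 of the 10 genes, and the 250 bases before the start in that table are shown for Ctla4, Btla and Cd200, the 3 of them that passed the test between treatments. For Btla and Cd200 that start lies inside the gene span given above, so that the whole Btla window and the last bases of the Cd200 window fall within the span. Capitals mark a match to GGAAA, the core of the NFAT motif, on either strand, where NFAT is the calcium-dependent factor of T cell receptor signalling.
Ctla4 (chr1:60908775-60909024, forward strand): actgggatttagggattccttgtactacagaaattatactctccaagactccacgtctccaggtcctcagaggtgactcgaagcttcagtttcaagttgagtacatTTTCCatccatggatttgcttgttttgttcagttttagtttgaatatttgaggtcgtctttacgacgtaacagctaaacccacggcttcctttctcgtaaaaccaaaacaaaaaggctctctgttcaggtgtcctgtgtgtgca
Btla (chr16:45224087-45224336, forward strand): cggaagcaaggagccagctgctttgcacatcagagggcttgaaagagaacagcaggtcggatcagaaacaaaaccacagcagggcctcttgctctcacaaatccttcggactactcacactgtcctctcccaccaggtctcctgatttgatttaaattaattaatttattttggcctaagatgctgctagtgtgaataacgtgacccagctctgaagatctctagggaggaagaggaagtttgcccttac
Cd200 (chr16:45409054-45409303, reverse strand): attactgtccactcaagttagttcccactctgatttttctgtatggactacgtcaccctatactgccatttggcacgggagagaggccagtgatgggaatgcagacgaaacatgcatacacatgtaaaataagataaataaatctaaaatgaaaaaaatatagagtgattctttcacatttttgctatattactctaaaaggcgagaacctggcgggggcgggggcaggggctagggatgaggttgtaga
The Ctla4 window held 1 such match and the Btla and Cd200 windows held 0. GGAAA occurred in 55.6% of the 32841 RefSeq promoters of this length. The c-Maf half-site TGCTGA (in 16.1% of promoters), the AP-1 motif TGANTCA (6.75%) and the STAT motif TTCNNNGAA (7.02%), searched on both strands, had 0 matches in these 3 windows. None of the motifs overlapped another here, and a match or its absence in this window says nothing about binding.

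Of the 10 genes, 7 passed the filter on low counts and were tested together with 11735 genes in all. Adjusted p-values below are from edgeR's quasi-likelihood test with Benjamini-Hochberg adjustment over all these genes and a threshold of 0.05. In Tfh5 against TfhA, 4 of the 7 passed with the label CD4Cre+ (Ctla4 and Cd86 higher, Icos and Cd200 lower), beside 5.39% of all genes (2.39% higher, 3% lower). With the label CD4Cre- 5 passed (the same 4 and Btla, lower), beside 5.08% of all genes (3.17% higher, 1.91% lower). In Tfh1 against TfhA the same 4 passed in the same directions with the label CD4Cre+, beside 2.57% of all genes (1.58% higher, 0.997% lower). With the label CD4Cre- they did so beside 2.23% (1.5% higher, 0.733% lower). Both treatments were set against the same TfhA libraries, so these comparisons are not independent. Between Tfh5 and Tfh1 only Ctla4 passed with the label CD4Cre+ (lower, beside 1.76% of all genes, 0.435% higher and 1.32% lower). With the label CD4Cre- 0 of 7 did, beside 0.554% (0.273% higher, 0.281% lower). There 2 of the 7, Ctla4 and Cd200, had an unadjusted p under 0.05, beside 1218 of all 11735 genes.

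Between the labels, Icos and Cd28 passed in Tfh5, higher with CD4Cre+, beside 3.24% of all genes (1.19% higher, 2.05% lower). The same 2 passed in Tfh1 in the same direction, beside 0.852% (0.511% higher, 0.341% lower). In TfhA 0 of 7 and 0 of all 11735 genes passed, with 1 of the 7 (Cd86) and 606 of all genes at an unadjusted p under 0.05. DESeq2 called 40 genes there and limma-voom 6, with 0 of the 7 in either. The median log2 difference between labels over the 7 genes was 0.72 in Tfh5, 0.12 in Tfh1 and -0.06 in TfhA, beside medians of 0, -0.02 and 0 over all genes. Tests of whether the label difference itself differed between treatments called 0 of 7 in each of the 3 pairs. All-gene shares were 1.19% for Tfh5 and TfhA (0.332% higher, 0.861% lower), 0.239% for Tfh1 and TfhA (0.102% higher, 0.136% lower) and 0.0597% for Tfh5 and Tfh1, all lower. Icos, Cd28 and Cd86 had an unadjusted p under 0.05 in the first and second of these, beside 1284 and 826 of all 11735 genes. The Cd86 values rest on 0 counts with CD4Cre+ and 9 with CD4Cre- in TfhA. The label differences of Tfh5 and Tfh1 are thus not shown to differ from that of TfhA.

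**Figure D1:**
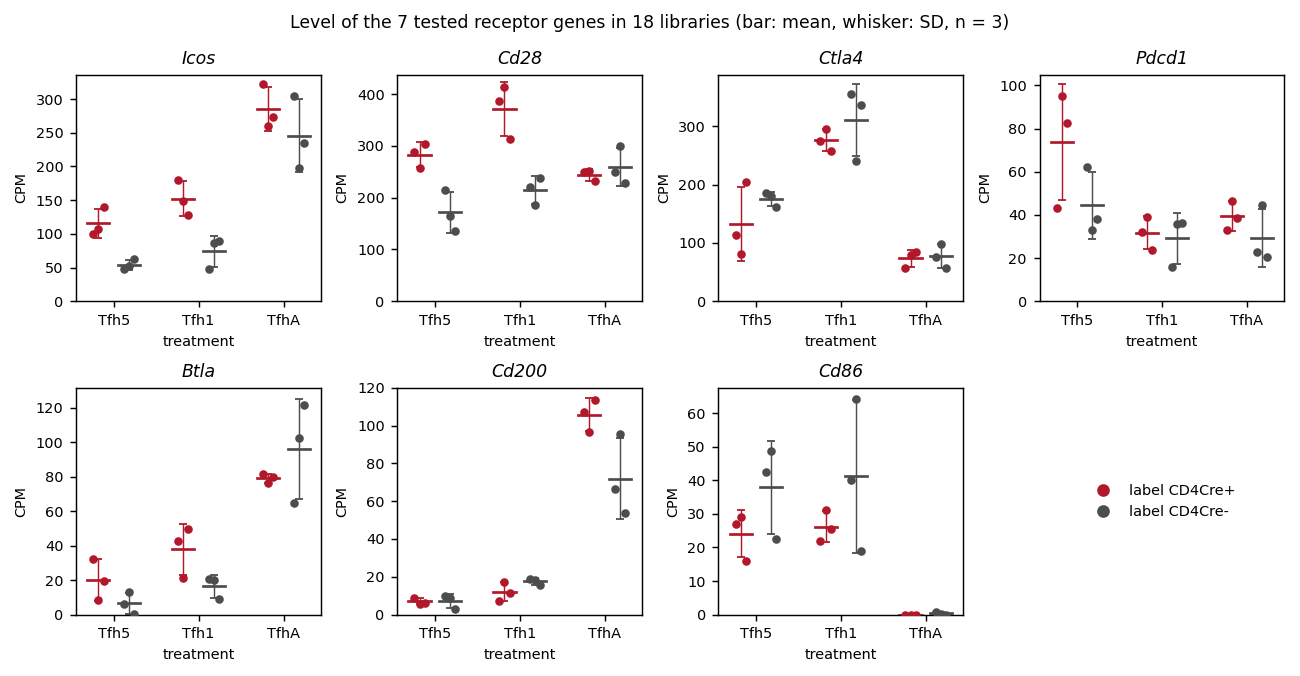
CPM of the 7 tested genes in each of the 18 libraries, by treatment (x axis) and label (colour), with the mean as a bar and the SD as a whisker (n = 3). Icos, Btla and Cd200 stood highest in TfhA, Ctla4 highest in Tfh1, and Cd86 at or near 0 in TfhA.

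Icos, the inducible costimulatory receptor, was highest in TfhA under both labels. In CPM it stood at 100.3, 107 and 139.9 in Tfh5, 180.5, 149 and 128 in Tfh1 and 323, 259.6 and 274 in TfhA in the libraries labelled CD4Cre+. With the label CD4Cre- it stood at 47.7, 52.0 and 62.2 in Tfh5, 47.4, 85.7 and 89.5 in Tfh1 and 304, 198 and 234 in TfhA. All 6 TfhA libraries lay above the other 12, and in Tfh5 and in Tfh1 every CD4Cre+ library lay above every CD4Cre- one. Within TfhA the labels overlapped, at 285 ± 33.0 CPM with CD4Cre+ and 245 ± 54.3 with CD4Cre- (SD, n = 3).

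Against TfhA, Icos was lower in Tfh5 by a log2 fold change of -1.30 ± 0.24 (SE, adjusted p = 0.000415) with the label CD4Cre+ and -2.18 ± 0.25 (adjusted p = 1.16e-07) with the label CD4Cre-. In Tfh1 the log2 fold changes were -0.90 ± 0.24 (adjusted p = 0.0310) and -1.73 ± 0.25 (adjusted p = 1.82e-05). The CD4Cre+ call in Tfh1 was lost without any of 5 of the 6 libraries, with adjusted p of 0.0594 to 0.167 and log2 fold changes of -0.97 to -0.79. Between labels, Icos was higher with CD4Cre+ by 1.10 ± 0.24 in Tfh5 (adjusted p = 0.00562) and by 1.04 ± 0.24 in Tfh1 (adjusted p = 0.0232), beside 0.22 ± 0.24 in TfhA (adjusted p = 1). The Tfh5 call was lost in a fit of those 6 libraries alone (adjusted p = 0.115). The Tfh1 call was lost in such a fit (adjusted p = 0.0579) and without CD4Cre+ replicate 1 (adjusted p = 0.171), CD4Cre+ replicate 3 (adjusted p = 0.0508) or CD4Cre- replicate 2 (adjusted p = 0.227). The test of the label difference in Tfh5 against that in TfhA gave 0.88 ± 0.34 (adjusted p = 0.259).

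Cd28, the constitutive costimulatory receptor, varied less over the groups than Icos, and its order of groups was another one. Its CPM with the label CD4Cre+ were 289, 257 and 304 in Tfh5, 388, 413 and 313 in Tfh1, and 249, 252 and 232 in TfhA. In libraries labelled CD4Cre- they were 214, 164 and 136 in Tfh5, 220.5, 186 and 238 in Tfh1, and 249, 299 and 228 in TfhA. The labels did not overlap in Tfh5 or Tfh1 and did in TfhA. Cd28 was higher with CD4Cre+ by 0.72 ± 0.20 in Tfh5 (adjusted p = 0.0336) and 0.79 ± 0.20 in Tfh1 (adjusted p = 0.0434), and the difference was -0.08 ± 0.20 in TfhA (adjusted p = 1). Both calls were fragile. That in Tfh5 was lost without CD4Cre+ replicate 1 or 6 (adjusted p = 0.0998 and 0.104), CD4Cre- replicate 4 or 5 (adjusted p = 0.102 and 0.219), the count filter (adjusted p = 0.0640) or the other groups (adjusted p = 0.254). That in Tfh1 was lost without CD4Cre+ replicate 1 or 3 (adjusted p = 0.182 and 0.174), CD4Cre- replicate 2, 4 or 5 (adjusted p = 0.133, 0.258 and 0.101) or the count filter (adjusted p = 0.0667).

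Beside the Icos and Cd28 differences, other T-cell surface genes also differed between the labels. Cd4 averaged 129 CPM ± 5.88 with CD4Cre+ and 57.4 ± 7.80 with CD4Cre- in Tfh5 (log2 difference 1.17 ± 0.23, adjusted p = 0.00129). Thy1, a surface protein of T cells, went the other way in Tfh5, at 184 ± 56.5 CPM with CD4Cre+ and 358 ± 65.5 with CD4Cre- (-0.96 ± 0.22, adjusted p = 0.00741). Cd3d, a chain of the T cell receptor complex, was higher with CD4Cre+ in Tfh1 (0.98 ± 0.19, adjusted p = 0.00369). Of the 10 markers, these were the only ones called between labels, and 0 were called in TfhA. The sum over the 10 CD4 T-cell markers ran from 3534 to 3967 CPM in CD4Cre+ and 2995 to 3336 in CD4Cre- libraries in Tfh5, and from 4009 to 4416 and 2627 to 3120 CPM in Tfh1. In TfhA these sums were 2325 to 2711 CPM with CD4Cre+ and 2143 to 2167 with CD4Cre-. The sum over 5 regulatory T cell markers was 347 to 367 CPM with CD4Cre+ and 850 to 1062 with CD4Cre- in Tfh5, and 499 to 662 and 860 to 1057 in Tfh1. In TfhA it was 739 to 954 CPM with CD4Cre+ and 628 to 756 with CD4Cre-. Il2ra, also a gene of activated T cells in general, was the largest part of this sum in Tfh5 and in CD4Cre- Tfh1. It stood at 239 ± 23.8 CPM with CD4Cre+ and 764 ± 115 with CD4Cre- in Tfh5 (-1.68 ± 0.18, adjusted p = 9.97e-08). In Tfh1 Il2ra stood at 249.7 ± 35.9 and 588 ± 56.2 CPM (-1.24 ± 0.18, adjusted p = 9.16e-05). Tnfrsf18 was the largest part elsewhere, averaging 309 CPM in CD4Cre+ Tfh1, 488 in CD4Cre+ TfhA and 356 in CD4Cre- TfhA. Il2ra averaged 317 CPM in both TfhA groups. Lrrc32 went against the sum between labels in Tfh1, at 10.9 CPM with CD4Cre+ and 1.91 with CD4Cre-. The part of either list in the Icos, Cd28 and Ctla4 differences was not tested, and in bulk RNA fewer cells of a type and less RNA per cell cannot be told apart.

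**Figure D2:**
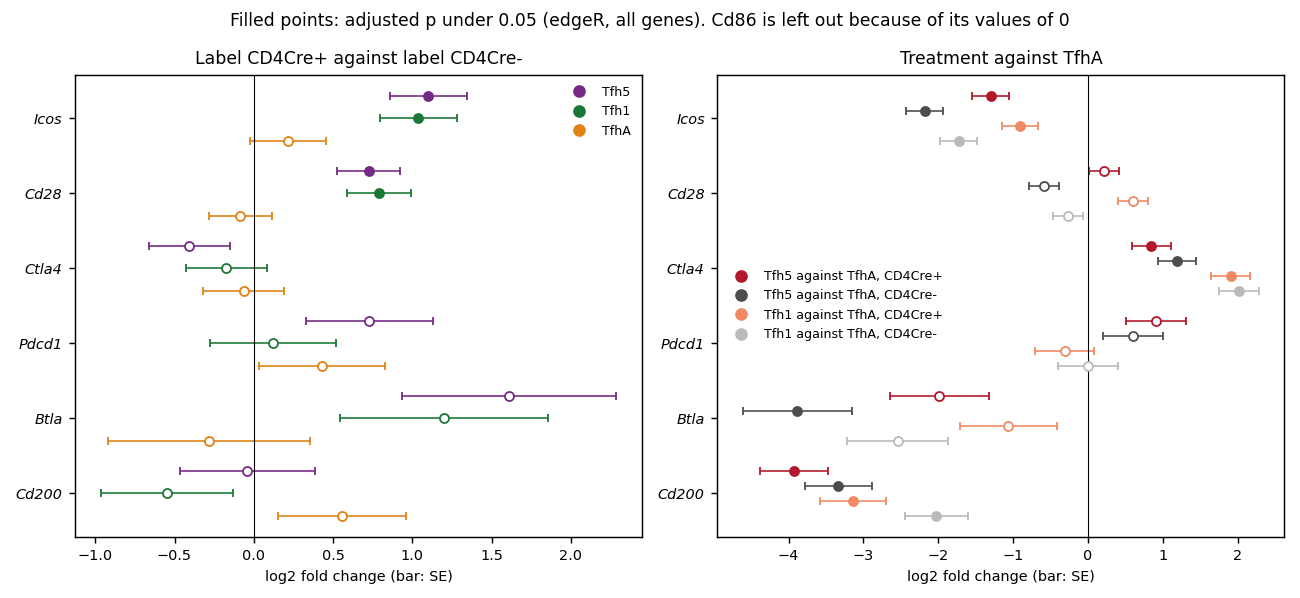
Log2 fold change (x axis) with its SE for 6 of the tested genes, between labels in each treatment (left) and between each treatment and TfhA within each label (right), with filled points for adjusted p under 0.05. Icos and Cd28 have filled points to the right of 0 in Tfh5 and Tfh1 on the left, and Ctla4 is the gene with filled points right of 0 on the right.

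Ctla4, which competes with CD28 for its ligands, was highest in Tfh1. Its CPM were 113, 81 and 204 in Tfh5, 275, 296 and 258 in Tfh1, and 57.0, 79.9 and 84.5 in TfhA with the label CD4Cre+. The CD4Cre- libraries had 185, 180.4 and 162 CPM in Tfh5, 356, 241 and 337 in Tfh1, and 76, 98.5 and 57.3 in TfhA. All 6 Tfh1 libraries lay above the other 12, and 5 of the 6 Tfh5 libraries lay above all TfhA libraries of their label, the exception being CD4Cre+ replicate 3 at 81 CPM. Against TfhA, Tfh1 raised Ctla4 by 1.90 ± 0.26 with CD4Cre+ (adjusted p = 1.19e-05) and 2.01 ± 0.27 with CD4Cre- (adjusted p = 4.11e-06). In Tfh5 the log2 fold changes were 0.85 ± 0.26 (adjusted p = 0.0460) and 1.19 ± 0.26 (adjusted p = 0.00287). The CD4Cre+ value in Tfh5 rests on replicate 6, without which it was 0.41 (adjusted p = 0.428), and it was also lost without any of the 3 TfhA libraries (adjusted p of 0.0676 to 0.210), with limma-voom (adjusted p = 0.129) and in a fit of those groups alone (adjusted p = 0.195).

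Ctla4 was lower in Tfh5 than in Tfh1 with CD4Cre+ (log2 fold change -1.06 ± 0.26, adjusted p = 0.0196). That call was lost without Tfh5 replicate 1 or 3 (adjusted p = 0.103 and 0.174), without Tfh1 replicate 1 or 3 (adjusted p = 0.0566 and 0.0767), and in a fit of those groups alone (adjusted p = 0.0951). With CD4Cre- the value was -0.83 ± 0.26 (adjusted p = 0.155). Between labels Ctla4 differed by -0.41 ± 0.26 in Tfh5, -0.17 ± 0.26 in Tfh1 and -0.06 ± 0.26 in TfhA, none of which passed (adjusted p = 0.487, 0.954 and 1).

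The balance of Ctla4 and Cd28 was described as counts of Ctla4 per count of Cd28 within a library, which does not depend on library scaling. The ratio is compared only between libraries, since the genes may be counted with unequal efficiency. In Tfh5 it was 0.391, 0.315 and 0.673 with CD4Cre+ and 0.864, 1.10 and 1.19 with CD4Cre-. In Tfh1 it was 0.709, 0.716 and 0.826 with CD4Cre+ and 1.62, 1.30 and 1.42 with CD4Cre-. In TfhA it was 0.229, 0.317 and 0.365 with CD4Cre+ and 0.305, 0.329 and 0.251 with CD4Cre-. The labels did not overlap in Tfh5 or Tfh1 and overlapped in TfhA, and all TfhA libraries lay below the other libraries of their label with 1 exception, CD4Cre+ Tfh5 replicate 3 at 0.315. Group means were 0.460 ± 0.188 against 1.05 ± 0.169 in Tfh5, 0.751 ± 0.0654 against 1.45 ± 0.159 in Tfh1 and 0.304 ± 0.0689 against 0.295 ± 0.0400 in TfhA (SD, n = 3 each, CD4Cre+ against CD4Cre-). The ratio was chosen with the values of both genes known and is given without a test.

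**Figure D3:**
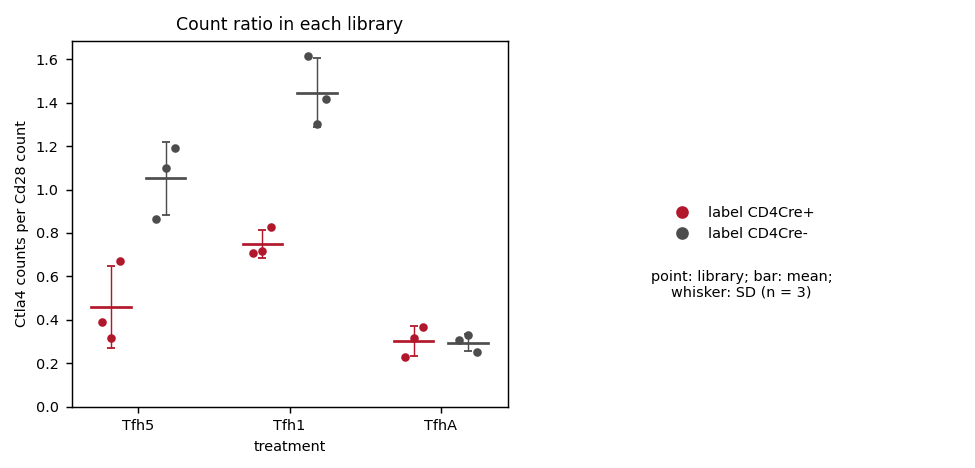
Ctla4 counts per Cd28 count (y axis) in each library by treatment (x axis) and label (colour), with mean and SD (n = 3). In Tfh5 and Tfh1 the 3 CD4Cre+ libraries lie below the 3 CD4Cre- libraries, and in TfhA the labels overlap at 0.229 to 0.365.

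Pdcd1, which encodes the inhibitory receptor PD-1, was detected in all 18 libraries at 15.7 to 95.2 CPM and passed no test. It averaged 73.8 CPM ± 27.1 in Tfh5, 31.7 ± 7.75 in Tfh1 and 39.5 ± 6.78 in TfhA with CD4Cre+ (SD, n = 3). With CD4Cre- the averages were 44.5 ± 15.5, 29.2 ± 11.7 and 29.3 ± 13.5 CPM. The highest libraries were CD4Cre+ Tfh5 replicates 3 and 6 at 95.2 and 82.8 CPM, while replicate 1 of that group, at 43.4 CPM, lay within the range of TfhA. Between Tfh5 and Tfh1 with CD4Cre+ the libraries did not overlap, but the log2 difference of 1.22 ± 0.40 did not pass (adjusted p = 0.143). In the order of group means, each group of Pdcd1 overlapped with the next.

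Btla and Cd200, both marker genes of Tfh cells, were highest in TfhA, as Icos was. Pdcd1, the other Tfh marker gene of the set, was not, although its differences passed no test. It averaged highest in Tfh5, at 73.8 CPM with CD4Cre+ and 44.5 with CD4Cre-, against 39.5 and 29.3 in TfhA. Btla CPM with CD4Cre+ were 32.2, 8.18 and 19.5 in Tfh5, 42.6, 21.4 and 49.5 in Tfh1, and 81.5, 76.3 and 79.6 in TfhA. With CD4Cre- they were 6.22, 12.8 and 0.335 in Tfh5, 20.8, 19.9 and 8.78 in Tfh1, and 64.5, 102 and 122 in TfhA. The TfhA libraries lay above all others under both labels, but the spread within the Tfh5 and Tfh1 groups was wide. Btla fell in Tfh5 against TfhA with CD4Cre- (log2 fold change -3.88 ± 0.72, adjusted p = 0.00208). It did not pass with CD4Cre+ (-1.99 ± 0.66, adjusted p = 0.0996), nor in Tfh1 with CD4Cre- (-2.55 ± 0.68, adjusted p = 0.0569) or CD4Cre+ (-1.06 ± 0.64, adjusted p = 0.498). DESeq2, limma-voom, the edgeR fit without the count filter and that of the compared groups alone each called it in CD4Cre+ Tfh5 (adjusted p of 6.25e-05 to 0.0231) and in CD4Cre- Tfh1 (adjusted p of 2.33e-07 to 0.00344). Between labels, Btla differed by 1.61 ± 0.68 in Tfh5 (adjusted p = 0.267), 1.20 ± 0.65 in Tfh1 (adjusted p = 0.535) and -0.28 ± 0.63 in TfhA (adjusted p = 1), and the Tfh5 difference was called without the count filter (adjusted p = 0.00625).

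Cd200, the ligand of the inhibitory receptor CD200R, was high in TfhA and low in both other treatments. With the label CD4Cre+ its CPM were 8.76, 5.71 and 6.33 in Tfh5, 7.33, 17.2 and 11.6 in Tfh1, and 107, 96.6 and 114 in TfhA. The CD4Cre- values were 9.72, 8.83 and 2.68 in Tfh5, 19.0, 18.4 and 15.4 in Tfh1, and 66.5, 95.5 and 53.8 in TfhA. No TfhA library came near the other treatments. Against TfhA, Tfh5 lowered Cd200 by a log2 fold change of -3.93 ± 0.46 with CD4Cre+ (adjusted p = 1.11e-07) and -3.33 ± 0.45 with CD4Cre- (adjusted p = 2.66e-06). The values in Tfh1 were -3.14 ± 0.44 (adjusted p = 1.34e-05) and -2.03 ± 0.42 (adjusted p = 0.00339). All 4 calls were kept under every alternative that was run. In TfhA the labels did not overlap, at 106 ± 8.64 CPM with CD4Cre+ and 72 ± 21.4 with CD4Cre-, but the difference did not pass (0.56 ± 0.40, adjusted p = 1).

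Some markers of NK and innate lymphoid cells were higher in TfhA than in Tfh5 and Tfh1, as Cd200 and Btla were. The sum over 5 NK and innate lymphoid markers was 0.453 to 8.65 CPM in Tfh5, 0 to 4.72 in Tfh1 and 148 to 218 in TfhA with CD4Cre+. With CD4Cre- it was 10.7 to 30.5, 3.35 to 15.3 and 172 to 225 CPM, and so ran higher in Tfh5 than in Tfh1, unlike Cd200 and Btla. Nkg7, a granule protein gene, made up most of the sum in TfhA, with 178 CPM ± 34.7 with CD4Cre+ and 187 ± 27.2 with CD4Cre-. Klrk1 also averaged highest in TfhA, at 9.49 and 11.2 CPM. With CD4Cre+, Eomes and Klrb1c went the other way, at 2.16 CPM in Tfh5 and 0.497 in Tfh1 against 0 in TfhA. In those groups 2 libraries each were at 0. Ncr1, which defines NK cells, was at 0 in all 18 libraries. The part of these markers in the Cd200 and Btla differences was not tested.

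Cd86, a ligand of CD28 and CTLA-4, was present in Tfh5 and Tfh1 and nearly absent in TfhA. It had 27.0, 29.1 and 16.0 CPM in Tfh5, 22.0, 31.2 and 25.6 in Tfh1 and 0 in all 3 TfhA libraries with the label CD4Cre+. With CD4Cre- it had 42.4, 48.9 and 22.4 CPM in Tfh5, 40.1, 64.4 and 19.1 in Tfh1, and 0.810, 0.307 and 0 in TfhA. In CD4Cre+ libraries the 527 counts in Tfh5 and 531 in Tfh1 against 0 in TfhA were at least 189-fold and at least 205-fold higher in scaled level, the floor being 3 counts for the TfhA group as a whole. In CD4Cre- libraries the 804 counts in Tfh5 and 807 in Tfh1 against 9 in TfhA were 117-fold (95% counting interval 61.5 to 258) and 122-fold (63.8 to 267) higher. All 4 differences passed edgeR's test, with adjusted p of 2.20e-08 and 5.91e-08 (CD4Cre+ Tfh5 and Tfh1) and 2.15e-07 and 3.51e-07 (CD4Cre- Tfh5 and Tfh1). Between labels the CPM overlapped in Tfh5 and in Tfh1, with log2 differences of -0.66 ± 0.57 and -0.65 ± 0.57 (adjusted p = 0.695 and 0.806).

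Since CD86 is best known on antigen-presenting cells, their markers were read beside it. Of 12 such markers, Lyz2, Adgre1, Flt3 and Clec9a were at 0 in all 18 libraries after rounding. Itgax was at 0 in both TfhA groups, as Cd86 nearly was, but also in CD4Cre+ Tfh1, where Cd86 was present. It averaged 5.78 CPM in CD4Cre- Tfh5, 1.56 in CD4Cre+ Tfh5 and 1.49 in CD4Cre- Tfh1. In the last 2 of these groups, 2 libraries each were at 0. Itgax did not pass in CD4Cre- Tfh5 against TfhA (adjusted p = 0.186). The sum of the list was 8.91 to 21.0 CPM in Tfh5, 98.7 to 122 in Tfh1 and 94.1 to 151 in TfhA with CD4Cre+, and 51.0 to 76.9, 125 to 149 and 62.2 to 70.9 CPM with CD4Cre-. Most of the sum came from the MHC class II gene H2-Ab1, at 13.5 CPM ± 7.16 in Tfh5, 107 ± 11.3 in Tfh1 and 112 ± 36.4 in TfhA with CD4Cre+, and 57.9 ± 12.8, 135 ± 14.9 and 55.5 ± 11.5 with CD4Cre-. The part of these markers in the Cd86 differences was not tested.

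Lag3, Tigit and Havcr2, the inhibitory receptors linked to late or exhausted T cell states, were too low to test. Lag3 had 80 counts over 13 of the 18 libraries and at most 2.24 CPM. Its group means ran from 0 CPM in CD4Cre- Tfh5, the group with all 3 libraries at 0, to 1.22 ± 1.13 CPM in CD4Cre+ Tfh1 (SD, n = 3). Tigit had 23 counts, all in CD4Cre+ TfhA replicate 6 (2.75 CPM). Havcr2 had 0 counts in all 18 libraries, which allows a level of up to 0.0223 CPM over all libraries (3 counts) and of up to 0.110 to 0.15 CPM in a group. These limits cover counting error only.

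Over the 18 libraries some of the tested genes varied with one another and others did not. On log2(CPM + 1) values, Pearson's r was 0.78 between Icos and Btla, 0.734 between Icos and Cd200 and 0.799 between Btla and Cd200. It was -0.847 between Icos and Cd86 and 0.787 between Ctla4 and Cd86, and 0.116 between Ctla4 and Cd28, neighbours on the chromosome. Pdcd1 had an r of -0.333 to 0.153 with the other tested genes, and Cd28 one of -0.0939 with Cd86 and 0.125 with Cd200. The points of these descriptions share the 6 groups, so they are not 18 independent values. Among 6448 genes with at least 10 CPM on average, the nearest to Icos were Dpp4, which encodes the surface peptidase CD26 (r = 0.903), Rere (0.901) and the adenosine receptor gene Adora2a (0.899). Nearest to Ctla4 were Actr10 (0.859), the ribosomal protein gene Rpl35 (0.844) and an unnamed identifier, and nearest to Cd28 were the glutaredoxin gene Glrx (0.918), Klf13 (0.849) and Zfp36l1 (0.832). Nearest to Pdcd1 were Cdipt (0.839), Cep83 (0.79) and Mafg (0.769), and nearest to Btla were Ms4a6b (0.917), Rilpl2 (0.887) and Ptp4a2 (0.884). Cd200 was nearest to Serpinb6b (0.957), the interferon-induced gene Ifitm3 (0.925) and the granzyme gene Gzmb (0.917). Cd86 was nearest to the Th17 cytokine gene Il17a (0.957), Pdpn, which encodes podoplanin (0.957), and Gcnt2 (0.953).

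The ligands of these receptors were mostly low in the cultures. Group means of Lgals9, Hmgb1 and Pvr were higher than most, at 34.1 to 48.9, 39.3 to 64.7 and 5.71 to 26.5 CPM. Of 16 ligand and counter-receptor genes listed, 11 were tested and 1 passed in any comparison. Over the comparisons, 0% to 5.39% of all tested genes passed. The 1 was Lgals3, the galectin-3 gene, whose product is a glycan-binding ligand of LAG-3. Lgals3 averaged 10.8 CPM ± 3.64 with CD4Cre+ and 247 ± 48.5 with CD4Cre- in Tfh5 (log2 difference -4.50 ± 0.34, adjusted p = 1.68e-11). In Tfh1 it averaged 66.2 ± 13.3 and 215 ± 31.7 CPM (-1.70 ± 0.30, adjusted p = 0.000957). The labels did not overlap in either treatment. Against TfhA it fell in Tfh5 with CD4Cre+ (-3.80 ± 0.33, adjusted p = 1.68e-10) and rose with CD4Cre- (1.55 ± 0.29, adjusted p = 0.000549), and the test of that difference between labels gave -5.35 ± 0.44 (adjusted p = 3.71e-10). The PD-1 ligand gene Pdcd1lg2 averaged 4.59 CPM ± 3.02 in Tfh5, 1.34 ± 1.24 in Tfh1 and 20.3 ± 3.72 in TfhA with CD4Cre+, and passed no test (adjusted p = 0.283 and 0.0616 against TfhA). Cd80 and Icosl, the ligands of CD28 or CTLA-4 and of ICOS, averaged at most 4.75 and 2.47 CPM in any group, and Cd276, Vtcn1 and Fgl1 were at 0 in every group.

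Of 20 other costimulatory or coinhibitory receptor genes of the immunoglobulin superfamily listed, 19 were matched and 16 tested. In Tfh5 against TfhA, 1 was higher and 1 lower with CD4Cre+, where 2.39% of all tested genes were higher and 3% lower. With CD4Cre-, 2 were higher and 2 lower, beside 3.17% and 1.91% of all tested genes. In Tfh1 against TfhA, 2 were higher and 0 lower under each label, beside 1.58% and 0.997% of all genes with CD4Cre+ and 1.5% and 0.733% with CD4Cre-. Their median log2 fold change in Tfh5 against TfhA was -0.10 with CD4Cre+ and -0.48 with CD4Cre-, beside -0.05 and -0.09 over all genes. Cd101, which encodes an inhibitory receptor, averaged 138 CPM ± 21.6 in Tfh5, 64.7 ± 8.92 in Tfh1 and 11.0 ± 7.31 in TfhA with CD4Cre+, and 119 ± 35.6, 49.2 ± 12.6 and 2.69 ± 1.44 with CD4Cre- (SD, n = 3). Its rise in Tfh5 was 3.68 ± 0.41 (adjusted p = 4.00e-08) with CD4Cre+ and 5.43 ± 0.45 (adjusted p = 9.88e-11) with CD4Cre-, and in Tfh1 2.58 ± 0.39 (adjusted p = 5.28e-05) and 4.16 ± 0.43 (adjusted p = 3.30e-08), and all 4 calls were kept under every alternative that was run. Cd2, the adhesion receptor for CD48, rose with CD4Cre- in Tfh5 (1.21 ± 0.18, adjusted p = 2.25e-05) and Tfh1 (1.28 ± 0.18, adjusted p = 1.90e-05). With CD4Cre+ its rise in Tfh1 was 0.64 ± 0.18 (adjusted p = 0.0477), a call lost in 9 of 14 alternatives, among them without any 1 of the 6 libraries (adjusted p of 0.0552 to 0.216). Slamf7 fell in CD4Cre+ Tfh5, to 0.603 CPM ± 1.04 against 51.6 ± 14.8 in TfhA (-6.34 ± 1.27, adjusted p = 0.00498).

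Slamf1, a homotypic receptor that signals through SAP in Tfh cells, was the 1 gene of the 16 tested on that list called between labels. The call was in Tfh5, beside 3.24% of all tested genes (1.19% higher, 2.05% lower). In Tfh1 and TfhA 0 of the 16 passed, beside 0.852% and 0% of all genes. Slamf1 stood at 10.2 CPM ± 8.17 with CD4Cre+ and 0.605 ± 1.05 with CD4Cre- in Tfh5 (3.97 ± 0.96, adjusted p = 0.0186). The call was lost without CD4Cre+ replicate 6 (adjusted p = 0.0953), CD4Cre- replicate 4 or 5 (adjusted p = 0.0553 and 0.0754), with limma-voom (adjusted p = 0.0616) and in a fit of the 6 libraries alone (adjusted p = 0.445). With CD4Cre- Slamf1 fell in Tfh5 against TfhA, where it averaged 30.6 ± 7.03 CPM (-5.54 ± 1.01, adjusted p = 0.000830). Slamf6 was the other gene lower there, listed at 0 in all 3 Tfh5 libraries against 7.78 ± 3.99 CPM in TfhA (adjusted p = 0.0420). The Slamf6 call was lost without any 1 of the 6 libraries (adjusted p of 0.0655 to 0.132), and the gene, under 10 CPM, was chosen after its values were seen. Vsir, which encodes the inhibitory receptor VISTA, averaged 137 CPM ± 48.0 with CD4Cre+ and 68.8 ± 33.6 with CD4Cre- in Tfh5, and did not pass (0.99 ± 0.33, adjusted p = 0.0988).

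**Figure D4:**
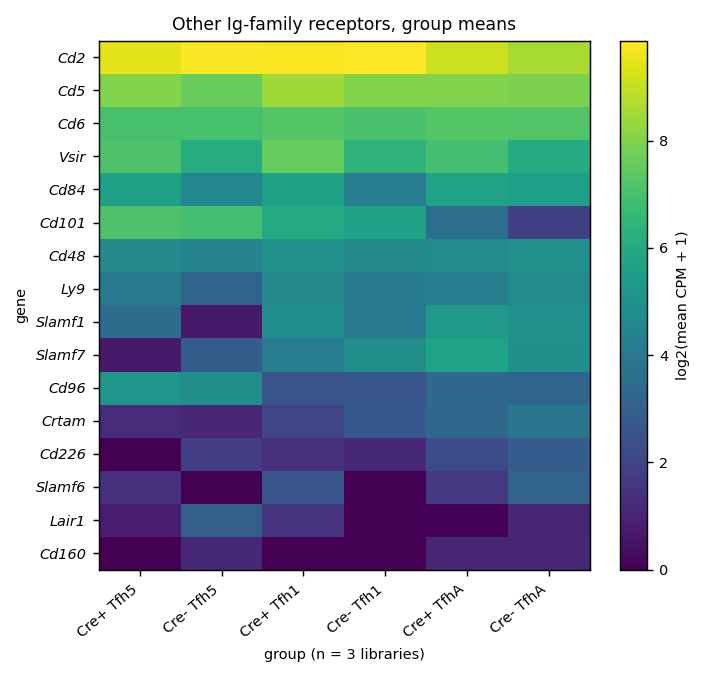
Group means of the 16 tested genes of other immunoglobulin-superfamily receptors as log2(mean CPM + 1) (colour), with groups in columns and genes in rows ordered by their mean. Along its own row, Cd101 is darkest in both TfhA columns, at 11.0 and 2.69 CPM. Slamf1 is darkest along its row in CD4Cre- Tfh5, at 0.605 CPM.

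Among 21 genes of proximal signalling and receptor trafficking, of which 20 were tested, 2 were higher and 0 lower with CD4Cre+ in Tfh5, beside 1.19% and 2.05% of all tested genes, and 0 passed in Tfh1 or TfhA. Sh2d2a, the T cell adaptor TSAd that binds LCK, averaged 275 CPM ± 112 with CD4Cre+ and 83.7 ± 11.8 with CD4Cre- in Tfh5 (1.72 ± 0.38, adjusted p = 0.00728), a call lost without CD4Cre- replicate 2 (adjusted p = 0.0582). The kinase gene Fyn was also higher (1.36 ± 0.38, adjusted p = 0.0398), with overlapping labels and a call lost in 7 of 13 alternatives. In Tfh5 against TfhA, 4 were higher with CD4Cre+ and 2 with CD4Cre-, beside 2.39% and 3.17% of all tested genes. Sh2d2a, at 38.2 ± 20.8 CPM in CD4Cre+ TfhA, rose by 2.84 ± 0.39 in CD4Cre+ Tfh5 (adjusted p = 1.66e-05), a call kept under every alternative that was run. Gab2, a docking adaptor downstream of CD28, was higher under both labels, at 21.5 CPM ± 2.97 in Tfh5 and 3.49 ± 0.881 in TfhA with CD4Cre+ (2.62 ± 0.66, adjusted p = 0.0109), and 16.5 ± 6.96 and 2.43 ± 1.66 with CD4Cre- (2.75 ± 0.67, adjusted p = 0.00859). The Gab2 calls were lost in 3 of 14 alternatives with CD4Cre+ and in 5 of 14 with CD4Cre-. In CD4Cre- Tfh1 Gab2 averaged 27.6 ± 4.57 CPM, a rise of 3.49 ± 0.69 against TfhA (adjusted p = 0.00201) that was kept under every alternative.

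The kinase genes Prkcq and Lck, both of T cell receptor signalling, were the others higher in CD4Cre+ Tfh5. Prkcq averaged 80.4 ± 37.2 CPM in Tfh5 and 23.5 ± 14.9 in TfhA (1.77 ± 0.41, adjusted p = 0.00552), and the call was lost without Tfh5 replicate 3 (adjusted p = 0.0797) or TfhA replicate 6 (adjusted p = 0.0573). Lck averaged 466 ± 63.3 and 260.1 ± 45.9 CPM (0.84 ± 0.23, adjusted p = 0.0230), and was lost without Tfh5 replicate 3 (adjusted p = 0.107) or TfhA replicate 3 or 6 (adjusted p = 0.0995 and 0.126). Pik3r1, a regulatory subunit of phosphoinositide 3-kinase, was higher in CD4Cre- Tfh5, at 34.1 ± 13.8 CPM against 7.49 ± 1.01 in TfhA (2.19 ± 0.59, adjusted p = 0.0192). That call was lost without Tfh5 replicate 2 (adjusted p = 0.120) or any 1 of the TfhA libraries (adjusted p of 0.0585 to 0.104). With CD4Cre+ Pik3r1 did not rise, at 23.4 ± 1.41 CPM in Tfh5 and 24.0 ± 16.1 in TfhA. In CD4Cre+ Tfh1 it was called lower than in TfhA, at 5.49 ± 3.59 CPM.

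Of 19 genes for regulators of checkpoint receptors, 15 were tested. In Tfh5, 3 were higher and 2 lower with CD4Cre+, beside 1.19% and 2.05% of all tested genes. In Tfh1 1 was higher and 1 lower, beside 0.511% and 0.341% of all genes, Maf being 1 of those higher in each. Tox, a nuclear factor of exhausted and Tfh cells, averaged 52.3 CPM ± 9.39 with CD4Cre+ and 4.64 ± 4.04 with CD4Cre- in Tfh5 (3.49 ± 0.77, adjusted p = 0.00629), a call lost in a fit of the 6 libraries alone (adjusted p = 0.105). Nr4a1 was also higher (3.66 ± 0.77, adjusted p = 0.00325), though at 26.1 ± 29.1 against 2.04 ± 1.6 CPM its CD4Cre+ level rests on replicate 6, without which the call was lost (adjusted p = 0.116). It was also lost with limma-voom (adjusted p = 0.248) and in a fit of the 6 libraries alone (adjusted p = 0.123). The AP-1 factor gene Batf was lower in Tfh5 (-1.02 ± 0.27, adjusted p = 0.0244), a call lost without CD4Cre+ replicate 1 (adjusted p = 0.182) or CD4Cre- replicate 5 (adjusted p = 0.140), and in a fit of the 6 libraries alone (adjusted p = 0.169). Nr4a2 was lower in Tfh1 (-2.06 ± 0.44, adjusted p = 0.00909), and lost without CD4Cre+ replicate 1 or 6 (adjusted p = 0.0511 and 0.0773). Against TfhA, Tbx21, the Th1 factor gene T-bet, fell with CD4Cre+ in Tfh5 (-4.48 ± 1.01, adjusted p = 0.00829) and Tfh1 (-7.40 ± 1.24, adjusted p = 0.00120), to 1.99 ± 2.01 and 0.264 ± 0.457 CPM against 45.1 ± 16.5 in TfhA. The Tfh5 call was lost without Tfh5 replicate 6 (adjusted p = 0.0672).

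Other regulators of the list differed between treatments with less stable calls. Zc3h12a, which encodes the RNase Regnase-1, averaged 0.519 ± 0.790 CPM in Tfh5, 11.1 ± 8.78 in Tfh1 and 21.9 ± 13.2 in TfhA with CD4Cre+. Its fall in Tfh5 against TfhA was -5.33 ± 1.08 (adjusted p = 0.00117) and was kept under every alternative that was run. It was also the second gene lower with CD4Cre+ in Tfh5, against 9.82 ± 5.11 CPM with CD4Cre- (-4.17 ± 1.03, adjusted p = 0.0153), and was lost there without CD4Cre+ replicate 1 or 6 (adjusted p = 0.0722 and 0.0805) and in a fit of the 6 libraries alone (adjusted p = 0.379). Irf4, a factor induced by T cell receptor signals, averaged 353 ± 31.8 CPM in Tfh1 and 196 ± 17.2 in TfhA with CD4Cre+ (0.84 ± 0.23, adjusted p = 0.0346), and the call was lost without any 1 of these 6 libraries (adjusted p of 0.0644 to 0.130). With CD4Cre- Irf4 averaged 346 ± 51.2 CPM in Tfh1 and 188 ± 15.1 in TfhA (0.88 ± 0.23, adjusted p = 0.0281), a call lost without 5 of the 6 libraries, with adjusted p up to 0.194. Nr4a2 in CD4Cre+ libraries averaged 17.6 ± 8.67 CPM in Tfh5 and 14.5 ± 9.29 in Tfh1 against 46.0 ± 11.1 in TfhA (-1.38 ± 0.43 and -1.67 ± 0.43, adjusted p = 0.0492 and 0.0247). These calls were lost in 6 and 5 of 14 alternatives, with adjusted p up to 0.237 and 0.164 when 1 library was left out.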

How the data were processed

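RNA was measured in 18 libraries of mouse CD4 T cells. Per the submitters' processing notes, reads were aligned with STAR 2.7.2b to mm10 and counted with featureCounts 1.6.4. The deposited values are expected counts per gene, since 11.7% to 18.1% of the values in a library are not whole; the sources used here do not state the strand setting or how shared reads were split. Of 27179 Entrez identifiers, 25275 were named through RefSeq (GRCm38.p6). The values were rounded, since the test had been planned for whole counts; it was edgeR's robust quasi-likelihood F test (edgeR 4.0.16, R 4.3.3) on all 18 libraries with group means, TMM scaling, filterByExpr and Benjamini-Hochberg adjustment over 11735 genes at 0.05. Standard errors come from the log2 fold change and the root of its F statistic. CPM are rounded counts per 1e6, with each library's total multiplied by its TMM factor (0.830 to 1.389). The 2 most abundant identifiers took 19.7% to 46.2% of a library. Spearman's coefficient between replicates was 0.847 to 0.926, and 0 pairs were identical.

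Alternatives were RLE scaling, those 2 identifiers left out, no filter, DESeq2 1.42.0, limma-voom (limma 3.58.1), values rounded down, the compared groups alone, the replicate number as a block and each library left out. The procedure was also run on simulated data in which only CD4Cre- Tfh5 held changed genes. That run does not measure how reliable the calls given here are. The 10 genes, the lists and the ratio of Ctla4 to Cd28 were chosen with earlier results of these data known. Named genes were drawn from the 10, Maf, Cd3e, Cd4, the 3 genes nearest each tested one by Pearson's r, and called list members that average 10 CPM or more in one of the compared groups, at most 4 per list and comparison; not all of these are described. Cd3d, other markers, Slamf6, Vsir and ligands that passed no test were chosen after their values were seen. Some results of the signalling list are not reported here. Reads can be PCR copies of 1 molecule, so intervals and floors describe counting error alone.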

Additional observations from a re-analysis of the deposited data

How the results depend on the processing

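All values of Cd200 and Cd86 against TfhA and of Icos against TfhA with CD4Cre- kept their direction and call under every alternative run. The count of the 7 genes called between labels in Tfh5, 2, was 0 in a fit of the compared groups alone and 1 to 2 with 1 library left out. In Tfh1 it was 1 without the count filter, 1 in the compared groups alone and 0 to 2 with 1 library left out. In Tfh5 against Tfh1 with CD4Cre+ it was 0 in the compared groups alone and 0 to 1 with 1 library left out, against 1. DESeq2 called 1 (Cd28) for the label difference in Tfh5 against that in TfhA. The cause was not tested.

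Small differences that failed the test changed sign. That of Cd200 between labels in Tfh5 was 0.0467 with limma-voom (-0.04 as reported) and -0.42 to 0.26 with 1 library left out. That of Pdcd1 in Tfh1 against TfhA with CD4Cre- was 0.00279 with RLE, 0.00489 without the 2 most abundant identifiers, 0.000325 with DESeq2, 0.00853 with limma-voom, 0.00657 in the compared groups alone and 0.0240 with the replicate block. That of Cd86 in Tfh5 against Tfh1 with CD4Cre- was 0.0486 with limma-voom, and its label difference in Tfh5 against Tfh1 was 0.0213 with RLE, 0.00251 without the 2 identifiers and 0.0225 with DESeq2.

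With 1 library left out, further uncalled differences changed sign. Between labels they ran from -0.18 to 0.31 for Pdcd1 in Tfh1, -0.23 to 0.17 for Ctla4 and -0.163 to 0.0526 for Cd28 in TfhA. Between treatments they ran from -0.29 to 0.11 (CD4Cre+) and -0.46 to 0.36 (CD4Cre-) for Cd86 in Tfh5 against Tfh1, and -0.20 to 0.47 for Pdcd1 in Tfh1 against TfhA with CD4Cre-. Differences of label effects ran from -0.15 to 0.62 for Pdcd1 (Tfh5 against TfhA) and -0.343 to 0.0621 for Ctla4 (Tfh1 against TfhA). For Tfh5 against Tfh1 they ran from -0.10 to 0.30 for Icos, -0.672 to 0.0248 for Ctla4, -0.21 to 0.13 for Cd28, -0.13 to 1.35 for Btla and -0.49 to 0.34 for Cd86.

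The genes called in all numbered 380 between labels in Tfh5 (668 with DESeq2, 80 with the compared groups alone), 100 between labels in Tfh1 (168 with no filter, 281 with DESeq2), 633 for Tfh5 against TfhA with CD4Cre+ (1014 with DESeq2, 1031 with limma-voom), and 302 for Tfh1 against TfhA with CD4Cre+ (631 with DESeq2, 559 with limma-voom). They numbered 206 for Tfh5 against Tfh1 with CD4Cre+ (314 with no filter, 437 with DESeq2, 314 with limma-voom, 115 with the compared groups alone), 596 for Tfh5 against TfhA with CD4Cre- (912 with DESeq2), 262 for Tfh1 against TfhA with CD4Cre- (476 with DESeq2, 433 with limma-voom, 566 with the compared groups alone), and 65 for Tfh5 against Tfh1 with CD4Cre- (232 with no filter, 261 with DESeq2, 28 with the compared groups alone). For differences of label effects the counts were 140 for the label effect in Tfh5 against that in TfhA (235 with no filter, 286 with DESeq2, 88 with the compared groups alone), 28 for the label effect in Tfh1 against that in TfhA (61 with no filter, 61 with DESeq2, 64 with the compared groups alone), and 7 for the label effect in Tfh5 against that in Tfh1 (45 with no filter, 58 with DESeq2, 3 with the compared groups alone, 16 with the replicate block).

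With 1 library left out these counts ran from 51 (without CD4Cre- Tfh1 replicate 5) to 99 between labels in Tfh1 and from 0 to 4 in TfhA. Against TfhA they ran from 170 (without CD4Cre+ TfhA replicate 3) to 282 for CD4Cre+ Tfh1, 360 (without CD4Cre- TfhA replicate 5) to 555 for CD4Cre- Tfh5 and 129 (without the same library) to 202 for CD4Cre- Tfh1, and for CD4Cre- Tfh5 against Tfh1 from 25 (without Tfh1 replicate 5) to 94. For label effects they ran from 81 (without CD4Cre+ TfhA replicate 1) to 164, 18 to 27 and 5 to 21 (without CD4Cre+ Tfh5 replicate 1).

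The share of calls that were higher was 49.5% with DESeq2 against 60% between labels in Tfh1, 35.7% against 24.8% for Tfh5 against Tfh1 with CD4Cre+, and 27.6% against 0% for the label effect in Tfh5 against that in Tfh1.

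Same-numbered libraries showed no clear pairing: 0 of 18 correlations of same-numbered deviations passed 0.1 (-0.0373 to 0.0773). The same number gave the highest correlation in 8 of 18 cases. Noise of low-count genes enters these correlations, so they cannot exclude pairing by animal or batch. The block lost Ctla4 in CD4Cre+ Tfh5 against TfhA (0.80, adjusted p = 0.0688) and gained Btla there (-2.19, adjusted p = 0.0484) and in CD4Cre- Tfh1 against TfhA (-2.76, adjusted p = 0.0272).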
